A study of Mus musculus with 43 samples.

Results

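Vehicle-treated colon epithelium was set against vehicle-treated colon fibroblasts, the epithelial and the stromal cells that line and support the same organ. The libraries were taken by their labels, as the 3 colonoid libraries with wild-type Apc and DMSO and the 4 fibroblast libraries with DMSO, which makes 7 of the 43 bulk RNA sequencing libraries of the series. Colonoids, which are organoids of normal colon crypts, came from the lines M41, M40 and M1. Their source was adult Vil-cre/ERT2/Apc wt/wt mice injected with tamoxifen. The recombinase is driven by the villin promoter of the gut epithelium and has no floxed Apc allele to act on. Colonoids were kept in Matrigel with EGF, R-spondin 1, Noggin and Wnt3a-conditioned medium. Fibroblasts came from the lines M3, M3(2), M1(2) and M11, and their labels give wild-type genotype and C57B/6 mice. For M1(2) and M11 this rests on the labels alone. They were isolated from the colon tissue left after the crypts had been removed and were grown flat in a medium with fetal bovine serum. The vehicle was DMSO at 0.5% in both, for 6 days in colonoids and 7 days in fibroblasts. Each line gave 1 library, and no line is in both groups. Cell type, sequencing run, culture format, medium, mouse strain and day of harvest all coincide with the 2 groups. So do the Vil-cre/ERT2 transgene and the tamoxifen injections, which the sources name for the colonoid mice alone. The parts of all these in any difference cannot be told apart.

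In the colon, a single layer of epithelial cells held together by E-cadherin, desmosomes and tight junctions rests on a basement membrane. Stem cells at the crypt base renew it under Wnt signals while BMP signals rise towards the lumen. Fibroblasts beneath the epithelium secrete the fibrillar matrix and many of the Wnt, BMP, TGF-beta and growth factor ligands and antagonists to which the epithelium responds. Contractile fibroblasts, or myofibroblasts, add smooth muscle actin and its partners.

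The depth, estimated from the smallest step between values, was 6590000 (M41), 16860000 (M40) and 14060000 reads (M1) counted on genes in colonoids. It was 8370000 (M3), 12830000 (M3(2)), 9550000 (M1(2)) and 11200000 reads (M11) in fibroblasts. Expression was measured in CP20M, gene counts scaled to a total of 20000000 in each library and not divided by gene length, so 20 CP20M is 1 CPM. Differences were computed on log2(CP20M + 20), fibroblasts minus colonoids, so a positive value means a higher level in fibroblasts. The added 20 understates the difference of genes that are near 0 in 1 group. Of 52636 genes, 11588 reached 200 CP20M in at least 2 of the 7 libraries and were tested with limma. A gene was called at a Benjamini-Hochberg adjusted p under 0.01 and a log2 difference of at least 3, that is 8-fold. The medians of gene lists are over the members tested. A member that passed the filter only through the group where it is high had to differ, so these medians describe the tested members and not the whole list. For some lists the value without the filter follows, which is the median over all members with values. It is given where these log2 medians differ in sign or by a factor above 1.5. Below, values follow the order M41, M40, M1 for colonoids and M3, M3(2), M1(2), M11 for fibroblasts.

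In all, 1692 genes (14.6% of those tested) were called, 1027 (8.86%) higher in fibroblasts and 665 (5.74%) higher in colonoids. In bulk libraries, fewer cells of a type and less RNA per cell cannot be told apart. For each of the 1692 genes every library of one group lay above every library of the other. This was also so for 8467 (73.1%) of all genes tested, so a lack of overlap alone says little here. Of the called genes, 73 were listed at 0 in all 4 fibroblast libraries and 39 at 0 in all 3 colonoid libraries. A log2 difference of 8 or more was reached by 42 genes in fibroblasts and 30 in colonoids. At the other end, 6620 genes (57.1%) differed by less than 1 on the log2 scale. Across the genes tested, Pearson's r of log2(CP20M + 20) was 0.957 to 0.966 between colonoid lines, 0.934 to 0.981 between fibroblast lines and 0.342 to 0.399 between the groups. Genes are not independent, and these are descriptions. The median log2 difference over all genes tested was −0.317. It moved to −0.06 with TMM scaling and to 0.001 with median-of-ratios scaling, so small differences in either direction carry this shift.

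**Figure D1:**
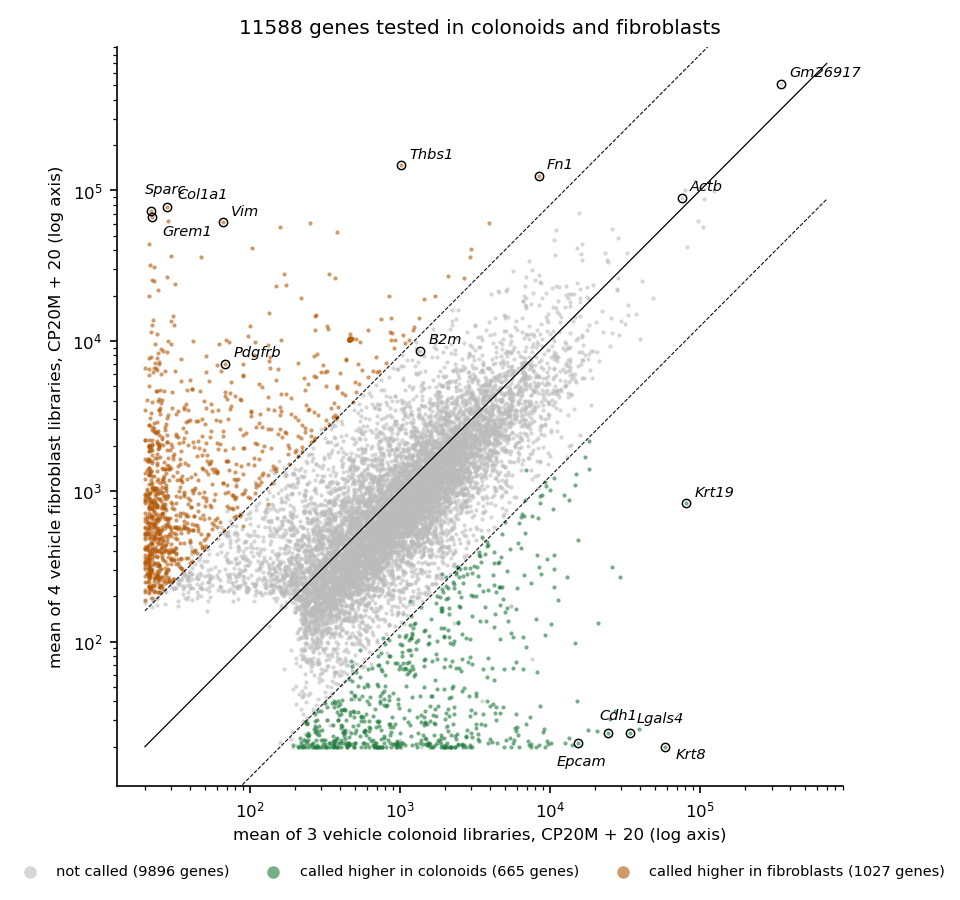
Mean level of each of the 11588 genes tested, with the 3 colonoid libraries on the x axis and the 4 fibroblast libraries on the y axis, both in CP20M + 20 on log axes. The solid line marks equal levels and the dashed lines an 8-fold difference; 665 genes called higher in colonoids (green) lie below and 1027 called higher in fibroblasts (brown) lie above, and named genes are circled.

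In every library the markers stood on the side of the labelled cell type. Epcam (ENSMUSG00000045394, chr17:87635979-87651129 in GRCm38), an adhesion protein of the epithelial surface, was at 13945, 17835 and 14201 CP20M in colonoids and 0, 0, 3 and 2 CP20M in fibroblasts, a log2 difference of −9.49 (SE 0.14, adjusted p = 2.3e-09). Cdh1 (ENSMUSG00000000303, chr8:106603351-106670246), which encodes E-cadherin, was at 20670, 26111 and 26381 CP20M in colonoids and 5, 5, 5 and 4 CP20M in fibroblasts (−9.94, SE 0.13, adjusted p = 1.5e-09). Both genes were abundant in all 3 colonoid lines and within a few CP20M of 0 in all 4 fibroblast lines. Col1a1 (ENSMUSG00000001506, chr11:94936224-94953042), a chain of type I collagen, was at 19, 3 and 2 CP20M in colonoids and 75168, 66729, 67485 and 99913 CP20M in fibroblasts (11.46, SE 0.23, adjusted p = 9.5e-09). For Pdgfrb (ENSMUSG00000024620, chr18:61045150-61085061), the platelet-derived growth factor receptor of mesenchymal cells, the levels were 73, 59 and 13 CP20M in colonoids and 6916, 5285, 5942 and 9948 CP20M in fibroblasts (6.78, SE 0.37, adjusted p = 1.4e-06). Colonoid M41 and M40 held more Pdgfrb than M1, and the lowest fibroblast line still stood 72 times above the highest colonoid line.

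**Figure D2:**
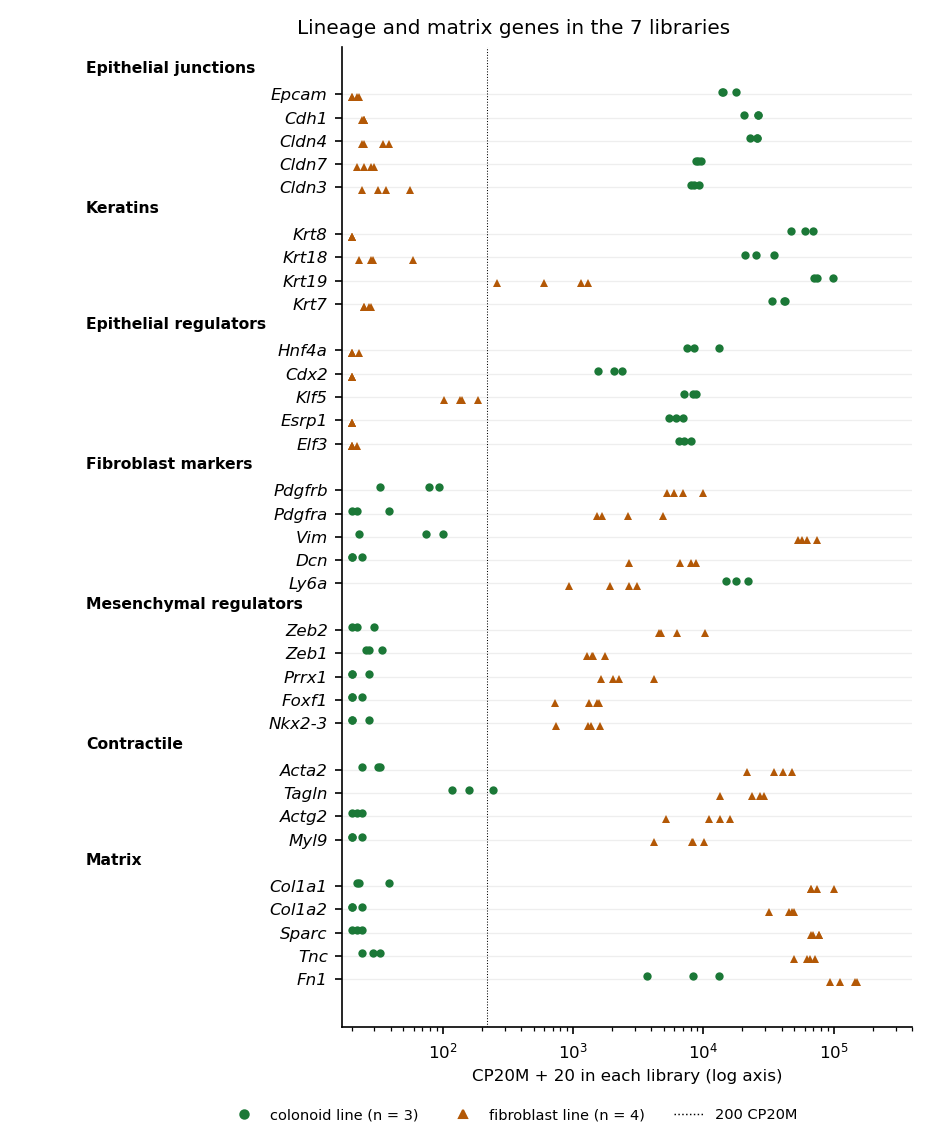
Levels of 33 epithelial, mesenchymal, contractile and matrix genes in each library, in CP20M + 20 on a log axis, with a circle per colonoid line and a triangle per fibroblast line; the dotted line is 200 CP20M. The groups do not overlap for any of the 33 genes, nor for 8467 (73.1%) of all genes tested. Ly6a, with 14840 to 22014 CP20M in colonoids and 915 to 3096 CP20M in fibroblasts, is the fibroblast marker that lies on the epithelial side.

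Genes of the epithelial junctions were high in colonoids and low in fibroblasts. Of 19 adhesion and junction genes tested (of 20 on the list), 18 were called higher in colonoids and none in fibroblasts, with a median log2 difference of −6.66 against −0.317 over all genes. Summed over the list, colonoids held 155473, 188042 and 173790 CP20M and fibroblasts 3856, 4989, 2212 and 2674 CP20M. Dsp, the desmosomal plaque protein desmoplakin, was at 18579, 31873 and 27517 CP20M in colonoids and 252, 538, 248 and 143 CP20M in fibroblasts (−6.47, SE 0.38, adjusted p = 2.3e-06). Cldn4, a claudin of tight junctions, was at 25902, 26060 and 22898 CP20M in colonoids and 15, 19, 5 and 4 CP20M in fibroblasts (−9.69, SE 0.19, adjusted p = 9.1e-09). Among the 7 claudin genes tested, 5 were called higher in colonoids, and per kilobase of exon Cldn4 (13741 CP20M), Cldn3 (6857 CP20M) and Cldn7 (4694 CP20M) had the highest mean levels there. The claudin called the other way was Cldn5, a claudin of endothelium, at 0 CP20M in each colonoid line and 27, 1027, 202 and 308 CP20M in fibroblasts (3.61, SE 0.89, adjusted p = 0.0063). The high value is that of M3(2), the difference was 2.91 without that line, and the call was lost in 6 of the 7 fits that leave out 1 library. Jup, which encodes plakoglobin of both desmosomes and adherens junctions, was the junction gene not called, at 6607, 11950 and 8250 CP20M in colonoids and 2386, 2485, 1215 and 1740 CP20M in fibroblasts (−2.19, SE 0.29, adjusted p = 0.00022). Of the 9 cadherins tested (of 23), 5 were called higher in fibroblasts and 2 in colonoids. Cdh2 (N-cadherin) was at 7779, 7127, 7138 and 9352 CP20M in them and 34, 50 and 9 CP20M in colonoids (7.35, SE 0.28, adjusted p = 2e-07). Cdh11 (OB-cadherin) was at 1303, 1833, 2916 and 1758 CP20M in fibroblasts and 0, 3 and 3 CP20M in colonoids (6.43, SE 0.26, adjusted p = 2.6e-07). Cdh6 was at 290, 308, 323 and 429 CP20M in fibroblasts (4.10, SE 0.22, adjusted p = 1.2e-06). The remaining pair had the line order of other cell types. Cdh5, of endothelium, was highest in M3(2) like the endothelial markers, and Cdh19, at 546, 219, 2001 and 5920 CP20M (5.82, SE 0.96, adjusted p = 0.00078), was highest in M11 and next in M1(2) like the glial markers described further on. Those called higher in colonoids were Cdh1 and Cdh17 (liver-intestine cadherin, −7.10).

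Because these junction genes lay on the same side, their promoter windows are shown for the letters bound by the Snail and Zeb repressors of epithelial genes. The RefSeq windows (GRCm38.p6) run from 250 bases before to 50 bases after a transcript start, and the letters searched were CACCTG on either strand, 1 form of the general E-box CANNTG that other factors also bind. Of the 19 junction genes tested, 11 have a window, and Cdh1 is not among them. The letters stood in 12 of the 15 windows of these 11 genes, and in 212 of 550 windows (38.5%) of genes called higher in colonoids. By comparison they stood in 145 of 898 windows (16.1%) of genes called higher in fibroblasts. They stood in 1960 of 10979 windows (17.9%) of genes tested and in 6640 of 32851 windows (20.2%) of all genes. Windows of 1 gene can overlap. Counted by gene the shares were 81.8% of the 11 junction genes (9 genes), 44.1% of 426 genes higher in colonoids and 19.5% of 661 higher in fibroblasts. They were 20.7% of 8502 genes tested and 22.6% of 27025 in all. A match is no evidence of binding. Epcam (chr17:87635729-87636028, plus strand) and Cldn4 (chr5:134946885-134947184, minus strand) have 2 matches each. Crb3, an apical polarity protein (chr17:57061951-57062250, plus strand), has 4 and Krt8 (chr15:102004293-102004592, minus strand) has 1, shown 5′ to 3′ on the strand of the gene with the matches in capitals.
Epcam: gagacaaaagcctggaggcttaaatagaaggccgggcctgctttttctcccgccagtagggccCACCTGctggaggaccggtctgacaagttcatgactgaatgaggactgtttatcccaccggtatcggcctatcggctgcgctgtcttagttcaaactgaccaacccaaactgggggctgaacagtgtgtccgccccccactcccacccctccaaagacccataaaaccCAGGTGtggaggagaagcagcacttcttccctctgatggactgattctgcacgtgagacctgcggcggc
Cldn4: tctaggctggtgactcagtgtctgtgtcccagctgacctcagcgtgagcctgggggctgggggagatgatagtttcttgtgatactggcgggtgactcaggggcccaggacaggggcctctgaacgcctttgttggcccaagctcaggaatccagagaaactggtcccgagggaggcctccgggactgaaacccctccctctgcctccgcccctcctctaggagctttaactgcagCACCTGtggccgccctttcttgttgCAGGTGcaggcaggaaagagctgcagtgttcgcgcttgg
Crb3: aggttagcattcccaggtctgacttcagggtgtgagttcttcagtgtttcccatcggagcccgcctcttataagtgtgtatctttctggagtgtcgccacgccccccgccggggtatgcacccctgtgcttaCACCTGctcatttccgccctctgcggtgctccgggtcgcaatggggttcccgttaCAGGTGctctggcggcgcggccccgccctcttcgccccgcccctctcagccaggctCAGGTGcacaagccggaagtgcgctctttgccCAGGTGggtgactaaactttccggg
Krt8: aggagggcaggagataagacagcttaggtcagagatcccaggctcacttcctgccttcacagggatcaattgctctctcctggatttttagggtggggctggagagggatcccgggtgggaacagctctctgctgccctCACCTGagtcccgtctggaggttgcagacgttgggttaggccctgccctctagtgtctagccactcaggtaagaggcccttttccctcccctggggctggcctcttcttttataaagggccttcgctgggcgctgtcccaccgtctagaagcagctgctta

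Of the factors known to bind these letters, Zeb2, Zeb1 and Snai2 were called higher in fibroblasts. Whether they bind these windows, or have a part in the levels of the junction genes, was not tested. Zeb2 was at 4698, 4548, 6217 and 10232 CP20M in fibroblasts and 10, 0 and 2 CP20M in colonoids (8.01, SE 0.29, adjusted p = 1.7e-07). Zeb1 was at 1411, 1254, 1385 and 1744 CP20M in fibroblasts and 7, 14 and 6 CP20M in colonoids (5.66, SE 0.17, adjusted p = 6.3e-08). Snai2 was at 629, 448, 685 and 606 CP20M in fibroblasts and 7, 0 and 2 CP20M in colonoids (4.73, SE 0.21, adjusted p = 5.1e-07). All 3 were within 14 CP20M of 0 in every colonoid line. Snai1 stayed below 200 CP20M in all libraries and was not tested, at 106, 150, 70 and 126 CP20M in fibroblasts and 7, 2 and 5 CP20M in colonoids. Twist1 (3.54) and Twist2 (3.17), further regulators of mesenchyme, were also called higher in fibroblasts.

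Keratins, the intermediate filaments of epithelium, gave the widest gap of the lists. All 6 epithelial keratins tested were called higher in colonoids, with a median log2 difference of −8.26. Krt8 was at 69554, 60286 and 46853 CP20M in colonoids and listed at 0 in every fibroblast library, so its fitted difference of −11.51 (SE 0.15, adjusted p = 1.5e-09) is set by the added 20. Krt18, the partner of Krt8, was at 35097, 25585 and 21076 CP20M in colonoids and 3, 39, 9 and 8 CP20M in fibroblasts (−9.69, SE 0.33, adjusted p = 1.1e-07). Krt19 was at 99576, 70253 and 74080 CP20M in colonoids and, unlike Krt8, was still measured in fibroblasts, at 1141, 1292, 585 and 240 CP20M (−6.84, SE 0.52, adjusted p = 9.2e-06). Krt7, a keratin of simple ductal epithelia, was at 41643, 33665 and 42190 CP20M in colonoids and 5, 5, 7 and 8 CP20M in fibroblasts (−10.54, SE 0.13, adjusted p = 1.5e-09). Per kilobase of exon the mean colonoid levels were 43829 CP20M for Krt19, 30081 for Krt8, 18965 for Krt18 and 5556 for Krt7. Over the whole family 12 of 53 keratin genes were tested and 11 called, all higher in colonoids, and these included keratins of stratified epithelium. Krt4 was at 8783, 1904 and 13567 CP20M, Krt13 at 683, 190 and 1660 CP20M, Krt14 at 1855, 1337 and 1363 CP20M and Krt6a at 243, 232 and 447 CP20M in colonoids, and none of the 4 exceeded 3 CP20M in a fibroblast line. Krt4 and Krt13 were lowest in M40 and several times higher in M41 and M1. Vimentin (Vim), the intermediate filament of mesenchyme, showed the reverse, at 57258, 53701, 62251 and 73975 CP20M in fibroblasts and 55, 80 and 3 CP20M in colonoids (10.11, SE 0.45, adjusted p = 4.6e-07).

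Regulators of epithelial and intestinal identity followed the junctions and keratins. Of 23 epithelial transcription and splicing factors tested (of 24), 21 were called higher in colonoids and none in fibroblasts (median −5.04). Hnf4a, a nuclear receptor of gut and liver epithelium, was at 8413, 13112 and 7476 CP20M in colonoids and 3, 0, 0 and 0 CP20M in fibroblasts (−8.83, SE 0.21, adjusted p = 1.9e-08). Klf5, a factor of proliferating crypt cells, was at 7059, 8724 and 8360 CP20M in colonoids and 168, 121, 116 and 83 CP20M in fibroblasts (−5.86, SE 0.20, adjusted p = 1.1e-07), and Ehf and Elf3, epithelial Ets factors, differed by −8.75 and −8.46. The intestinal homeobox genes Cdx1 (2207, 3262 and 1484 CP20M), Cdx2 (2365, 1541 and 2064 CP20M) and Isx (1867, 2052 and 1978 CP20M) and the splicing regulator Esrp1 (6197, 6913 and 5475 CP20M) were listed at 0 in every fibroblast library. Klf4 (5190, 4578 and 6240 CP20M against 1485, 2425, 1626 and 767 CP20M, −1.85) was lower in fibroblasts by less than 8-fold and was not called.

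Mesenchymal transcription factors were the counterpart. Of 15 tested (of 26 on the list), 12 were called higher in fibroblasts and none in colonoids (median 4.04, and 2.37 without the filter). Beside Zeb2 they were led by Prrx1, a homeobox factor of mesenchyme, at 2243, 2012, 4202 and 1631 CP20M in fibroblasts and 7, 0 and 0 CP20M in colonoids (6.75, SE 0.31, adjusted p = 5.6e-07). Foxf1 and Nkx2-3, which are factors of the gut mesenchyme, were at 1566, 1516, 1318 and 703 CP20M and 1605, 1354, 1284 and 717 CP20M in fibroblasts and at 7 CP20M or less in colonoids (5.87, SE 0.29, adjusted p = 7.6e-07, and 5.77, SE 0.28, adjusted p = 7.9e-07). Both were lowest in line M11. Runx1, Runx2 and Tcf4 were expressed in both groups and not called, and Runx1 was at 1985, 2070 and 2912 CP20M in colonoids and 1220, 894, 1169 and 2242 CP20M in fibroblasts (−0.80). Foxl1, the marker of telocytes, was at 5, 7, 11 and 24 CP20M in fibroblasts and was not tested.

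Most colonocyte and goblet cell genes that were tested were called higher in colonoids. Of 10 absorptive colonocyte genes tested (of 18), 9 were called higher in colonoids (median −6.68, and −2.47 without the filter). Car2, a carbonic anhydrase, was at 21213, 14607 and 25956 CP20M in colonoids and 0, 7, 9 and 6 CP20M in fibroblasts (−9.63, SE 0.22, adjusted p = 1.7e-08). Car1 was at 15957, 8991 and 12531 CP20M in colonoids and 0, 4, 0 and 0 CP20M in fibroblasts (−9.18, SE 0.20, adjusted p = 1.4e-08). Ceacam1, a surface glycoprotein, was at 18121, 21711 and 22902 CP20M in colonoids and 278, 135, 30 and 11 CP20M in fibroblasts (−7.82, SE 0.71, adjusted p = 2.4e-05). Vil1, the actin bundler of the brush border whose promoter drives the recombinase in these mice, was at 6750, 11849 and 8505 CP20M in colonoids and 5, 11, 0 and 4 CP20M in fibroblasts (−8.48, SE 0.23, adjusted p = 3.4e-08). Surface colonocyte genes were low even in colonoids, with Car4 at 10, 0 and 0 CP20M, Aqp8 at 19, 4 and 0 CP20M and Slc26a3 at 28, 360 and 5 CP20M, and these were not tested. Of 10 goblet cell genes tested (of 13), 8 were called higher in colonoids (median −5.6), and all but Muc13 were lowest in line M1. Muc2, the main mucin of the colon, was at 2267, 4154 and 93 CP20M in colonoids and 3, 7, 3 and 2 CP20M in fibroblasts (−5.44, SE 1.08, adjusted p = 0.0021). Tff3, a trefoil peptide of goblet cells, was at 2771, 2866 and 138 CP20M in colonoids and listed at 0 in all fibroblasts (−5.76, SE 0.94, adjusted p = 0.0007). Muc13, a mucin of the whole epithelium, was even, at 4413, 6129 and 6883 CP20M (−7.75, SE 0.19, adjusted p = 2.1e-08). Without M41, and likewise without M40, 5 goblet genes passed the filter and 4 were called, whereas without M1 10 passed and 9 were called. Enteroendocrine and tuft cell genes were called in both directions, 2 higher in colonoids and 1 in fibroblasts. Of 8 tested (of 14), 5 were not called (median −2.44). At an adjusted p of 0.05 and a log2 difference of 1, 6 were higher in colonoids and 2 in fibroblasts, against 2686 and 2216 of all genes. The list summed to 602 to 2719 CP20M in colonoids and 962 to 5426 CP20M in fibroblasts, and Dclk1 made up most of each fibroblast sum. The 2 called higher in colonoids were Chgb (562, 429 and 20 CP20M) and Pyy (565, 214 and 19 CP20M). Neither was called when any fibroblast line was left out or under TMM scaling. Dclk1, a kinase often used as a tuft cell marker, was the 1 called higher in fibroblasts, at 742, 673, 1957 and 5077 CP20M in fibroblasts and 16, 3 and 5 CP20M in colonoids (5.79, SE 0.66, adjusted p = 9e-05). The tuft cell factor Pou2f3 stayed at 11 CP20M or less in all 7 libraries.

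Stem cell genes and targets of Wnt signaling were mostly higher in colonoids, and 5 of 10 tested (of 15) were called, all in that direction (median −3.03). Axin2, a feedback target of Wnt signaling, was at 1366, 2134 and 2366 CP20M in colonoids and 8, 41, 32 and 111 CP20M in fibroblasts (−5.04, SE 0.47, adjusted p = 3e-05). Prom1, a membrane protein of crypt base cells, was at 6862, 9807 and 12180 CP20M in colonoids and 72, 839, 176 and 240 CP20M in fibroblasts (−5.22, SE 0.65, adjusted p = 0.00016). Myc was at 5946, 5482 and 7785 CP20M in colonoids and 574, 721, 696 and 608 CP20M in fibroblasts (−3.25, SE 0.15, adjusted p = 5.7e-07; −2.99 with TMM scaling, not called). Rnf43, which removes Wnt receptors from the surface, was at 2395, 4503 and 4544 CP20M in colonoids and 46, 39, 38 and 31 CP20M in fibroblasts (−5.98, SE 0.24, adjusted p = 2.7e-07). Lgr5, the R-spondin receptor that marks crypt base stem cells, was low in all colonoid lines, at 146, 500 and 561 CP20M, and 0, 13, 9 and 0 CP20M in fibroblasts (−3.89, SE 0.47, adjusted p = 0.00013). Olfm4 was at 7, 10 and 3 CP20M in colonoids and listed at 0 in all fibroblasts. Lrig1, at 1670, 2990 and 3298 CP20M in colonoids and 2295, 2775, 3509 and 1705 CP20M in fibroblasts (−0.03), overlapped between the groups. Ephb2 was at 4340, 5724 and 5697 CP20M in colonoids and 323, 373, 1546 and 2773 CP20M in fibroblasts (−2.58, SE 0.71, adjusted p = 0.011), with M1(2) and M11 several times above M3 and M3(2). The medium of the colonoids supplied Wnt3a and R-spondin, and its part in these values cannot be told apart from cell type.

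Of 16 fibroblast marker genes tested (of 20), 14 were called higher in fibroblasts and 1 in colonoids (median 5.77). Sparc, a matrix-binding glycoprotein, was at 77625, 66544, 77703 and 69725 CP20M in fibroblasts and 4, 0 and 2 CP20M in colonoids (11.70, SE 0.11, adjusted p = 9e-10). Ddr2, a collagen receptor kinase, was at 11396, 11515, 11936 and 9621 CP20M in fibroblasts and 10, 0 and 2 CP20M in colonoids (8.88, SE 0.16, adjusted p = 5.4e-09). Axl, a receptor kinase, was at 29263, 26643, 24109 and 20237 CP20M in fibroblasts and 4, 2 and 3 CP20M in colonoids (10.08, SE 0.14, adjusted p = 1.9e-09). Postn, which encodes periostin, was at 4002, 2923, 9984 and 18417 CP20M in fibroblasts and 13, 4 and 0 CP20M in colonoids (8.09, SE 0.59, adjusted p = 7.6e-06). Postn was highest in M11 and M1(2) and lowest in M3(2), whereas Cd34 (2888, 5134, 5534 and 853 CP20M) and Dcn (decorin, 6574, 8717, 8009 and 2671 CP20M) were lowest in M11. Pdgfra was highest in M3 (4877, 2606, 1645 and 1499 CP20M). Ly6a, a stem cell antigen that also marks fibroblast subsets, was called higher in colonoids, at 22014, 14840 and 17904 CP20M against 3096, 2681, 1921 and 915 CP20M (−3.19, SE 0.39, adjusted p = 0.00014). The gap fell short of 8-fold without M11 (−2.83), with TMM scaling (−2.93) and with median-of-ratios scaling (−2.86). Pi16, a marker of adventitial fibroblasts, did not exceed 5 CP20M in any library, and Fap and Lum stayed below 320 CP20M and were not tested.

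Transcripts of other stromal cell types were present in the fibroblast cultures, unevenly between lines. Of 5 endothelial markers tested (of 10), 4 were called higher in fibroblasts (median 4.82). The list summed to 1519, 14914, 2816 and 4139 CP20M in fibroblasts and to 171, 146 and 92 CP20M in colonoids. Cdh5 (VE-cadherin) was at 483, 3486, 778 and 1119 CP20M (5.57, SE 0.59, adjusted p = 5.8e-05). Pecam1 was at 290, 2538, 532 and 760 CP20M (4.82, SE 0.63, adjusted p = 0.00021). Emcn was at 259, 2315, 371 and 411 CP20M (4.85, SE 0.66, adjusted p = 0.00026). Tie1 was at 132, 1795, 258 and 440 CP20M (4.29, SE 0.74, adjusted p = 0.00097). None of the 4 exceeded 16 CP20M in a colonoid line. Line M3(2) was highest for each of them, and all 4 were still called without it. Of 7 glia and neuron markers tested (of 9), 5 were called higher in fibroblasts (median 5.06). The list summed to 4088, 3000, 9201 and 22957 CP20M in fibroblasts and to 88, 33 and 19 CP20M in colonoids. Sox10, the factor of the neural crest, was at 448, 258, 1766 and 4909 CP20M (5.56, SE 0.89, adjusted p = 0.00065). Gfap, the filament of glia, was at 383, 194, 786 and 3868 CP20M (5.06, SE 0.86, adjusted p = 0.00088). M11 was highest and M1(2) next for both genes, while the neuronal RNA-binding gene Elavl4 stayed at 12 CP20M or less. The 5 called genes with the widest spread among fibroblast lines, Kcna6, Gm26673 (which overlaps Kcna6), Scn7a, Insc and Grik3, had the same order of lines, for example Scn7a at 273, 200, 1414 and 4586 CP20M. Gm26673 and Grik3 were not called without any 1 colonoid library (adjusted p of limma 0.0169 to 0.0244) and did not pass the filter without M1(2) or M11. Insc was not called without M40 or M1 (adjusted p = 0.0107 and 0.0104). Uchl1 and Tubb3, which are neuronal but not restricted to neurons, were at 1220, 1451, 1885 and 2716 CP20M and 1530, 724, 2252 and 4679 CP20M.

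Few macrophage and leukocyte markers passed the filter, and of 15 markers 3 were tested. The list summed to 2597, 1261, 1921 and 5997 CP20M in fibroblasts and to 2601, 3170 and 1107 CP20M in colonoids. Lyz2 (lysozyme, 1791, 674, 1169 and 4214 CP20M in fibroblasts, at most 4 CP20M in colonoids, 6.22, SE 0.53, adjusted p = 1.8e-05) was called higher in fibroblasts, and Cd14 (2076, 2560 and 605 CP20M against 53, 113, 74 and 81 CP20M, −3.94) in colonoids. Ptprc, the defining pan-leukocyte marker, was at 46, 7, 30 and 133 CP20M in fibroblasts and at most 7 CP20M in colonoids, and Cd3e and Cd79a did not exceed 5 CP20M anywhere. Of the mesothelial and adipocyte list 1 gene of 8 was tested, Msln (mesothelin). It was higher in colonoids, at 7727, 10222 and 12487 CP20M against 108, 267, 63 and 4 CP20M (−6.75, SE 0.72, adjusted p = 6.2e-05). The mesothelial markers Upk3b and Wt1 and the adipocyte markers Adipoq and Plin1 did not exceed 19 CP20M. Fabp4, a fatty acid binding protein of adipocytes and of capillary endothelium, was at 60, 553, 114 and 167 CP20M in fibroblasts and at most 4 CP20M in colonoids. It passed 200 CP20M in M3(2) alone and was not tested. How many endothelial cells, glial cells or leukocytes the fibroblast cultures held was not tested. Without M3(2) and M11, an alternative added once the values were known, 913 genes were called higher in fibroblasts and 686 in colonoids, and 1527 of the 1692 calls were shared.

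**Figure D3:**
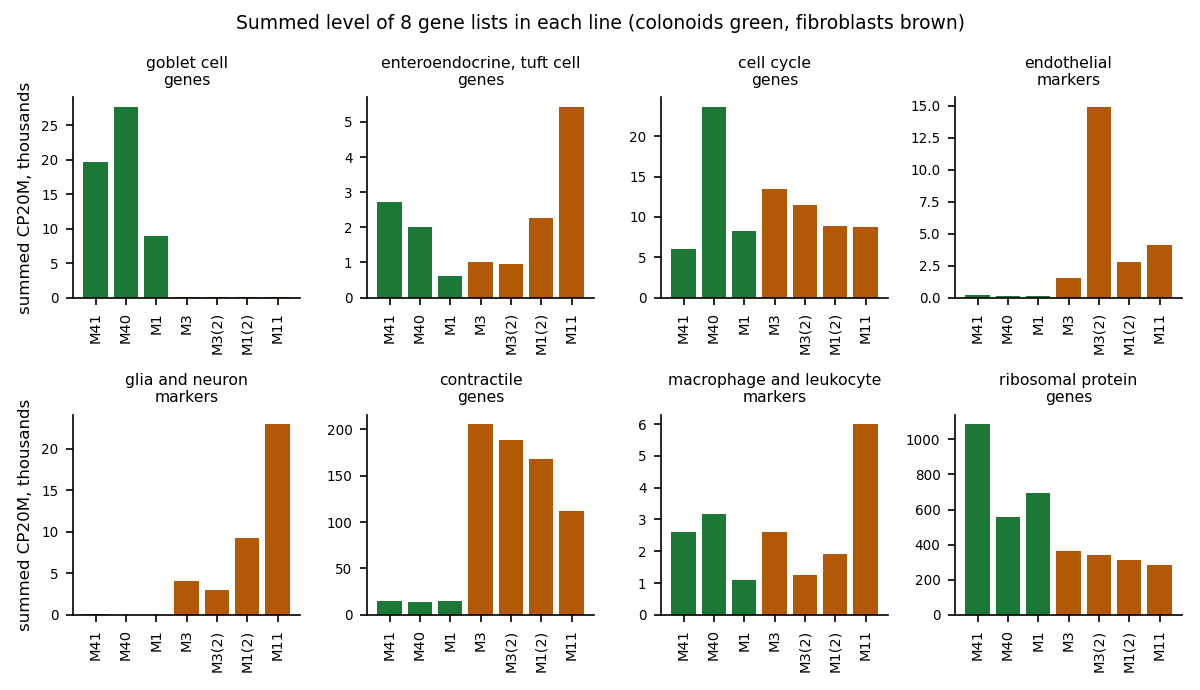
Summed level of 8 gene lists in each of the 7 libraries, in units of 1000 CP20M, with colonoid lines in green and fibroblast lines in brown and a separate y axis for each list, starting at 0. Goblet genes are lowest in colonoid M1, cell cycle genes highest in colonoid M40, endothelial markers highest in fibroblast M3(2) and glia and neuron markers highest in fibroblast M11.

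Contractile genes, which mark myofibroblasts and smooth muscle, were higher in the fibroblast cultures. Of 13 tested (of 14), 10 were called higher in fibroblasts and none in colonoids (median 5.66). The list took 1.03%, 0.942%, 0.839% and 0.557% of the fibroblast libraries and 0.0714% to 0.0744% of the colonoid libraries. Acta2, smooth muscle alpha-actin, was at 48188, 41164, 35029 and 21543 CP20M in fibroblasts and 13, 4 and 12 CP20M in colonoids (10.22, SE 0.27, adjusted p = 3.2e-08). Tagln (transgelin) was at 29026, 27358, 23600 and 13371 CP20M in fibroblasts and 98, 225 and 138 CP20M in colonoids (7.08, SE 0.32, adjusted p = 5.5e-07). Cald1 (caldesmon) was at 32904, 30832, 27860 and 19973 CP20M in fibroblasts and 125, 125 and 197 CP20M in colonoids (7.37, SE 0.21, adjusted p = 5.1e-08). Actg2, smooth muscle gamma-actin, was at 15938, 13367, 11090 and 5132 CP20M in fibroblasts and 4, 2 and 0 CP20M in colonoids (8.90, SE 0.35, adjusted p = 2.5e-07). M3 was highest and M11 lowest for all 4. Myh11, the myosin of mature smooth muscle, was at 761, 1937, 903 and 513 CP20M (5.28, SE 0.39, adjusted p = 8.4e-06), highest in M3(2), while Des (desmin) did not exceed 55 CP20M in any library. Tpm1, Cnn2 and Calu were not called, Tpm1 being at 7548, 6933 and 5805 CP20M in colonoids and 19856, 19843, 17097 and 12268 CP20M in fibroblasts (1.33). Of 6 smooth muscle, pericyte and interstitial cell markers tested (of 10), 3 were called higher in fibroblasts, Actg2, Myh11 and Cspg4, and 1 in colonoids. Cspg4, a proteoglycan of pericytes that other mesenchymal and glial cells also express, was at 565, 490, 474 and 1331 CP20M in fibroblasts and 4, 2 and 3 CP20M in colonoids (4.86, SE 0.35, adjusted p = 7.5e-06), highest in M11. The pericyte gene Rgs5 stayed at 17 CP20M or less and Kit, of interstitial cells, at 54 CP20M or less in fibroblasts. Ano1, a chloride channel of interstitial cells and of epithelia, was the marker called higher in colonoids (2544, 3709 and 3838 CP20M against 137, 278, 218 and 231 CP20M, −3.86). Contractile genes are known targets of serum response factor, which binds the CArG box. Its letters, searched on both strands, stood in 2 of 11 windows of the contractile genes, and in 18 of 898 windows (2%) of genes called higher in fibroblasts. They stood in 9 of 550 (1.64%) of those called higher in colonoids, in 152 of 10979 (1.38%) of genes tested and in 535 of 32851 windows (1.63%) of all genes. The contractile genes with a match were Myl9, a myosin light chain (10117, 8309, 8215 and 4195 CP20M in fibroblasts, 8.44), and Cnn2, and the window of Myl9 (chr2:156775214-156775513, plus strand) is shown with its match in capitals.
Myl9: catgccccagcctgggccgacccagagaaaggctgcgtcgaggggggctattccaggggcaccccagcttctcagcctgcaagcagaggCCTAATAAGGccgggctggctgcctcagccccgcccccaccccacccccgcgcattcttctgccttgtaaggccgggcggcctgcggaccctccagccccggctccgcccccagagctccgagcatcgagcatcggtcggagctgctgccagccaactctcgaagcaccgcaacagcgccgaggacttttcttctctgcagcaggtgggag

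Matrix genes were among the most abundant transcripts of fibroblasts. Of 22 collagen genes tested (of 44), 21 were called higher in fibroblasts and none in colonoids (median 5.11, and 2.83 without the filter). Collagens took 1.87%, 1.65%, 1.6% and 2.02% of the fibroblast libraries and 0.0311% to 0.0478% of the colonoid libraries. Col1a2 was at 45846, 48010, 31988 and 49362 CP20M in fibroblasts and 4, 0 and 0 CP20M in colonoids (10.99, SE 0.17, adjusted p = 2.5e-09). Col5a2 was at 33453, 33748, 33814 and 27398 CP20M in fibroblasts and 0, 0 and 5 CP20M in colonoids (10.54, SE 0.13, adjusted p = 1.5e-09). Per kilobase of exon the mean fibroblast levels were 11782 CP20M for Col1a1, 8172 for Col4a1, 5489 for Col4a2, 3525 for Col1a2 and 1393 for Col3a1. Basement membrane collagens were also measured in colonoids. Col4a1 was at 2796, 4439 and 4458 CP20M in colonoids and 73377, 60101, 54982 and 55518 CP20M in fibroblasts (3.98, SE 0.20, adjusted p = 9.6e-07). Col4a2 was at 2164, 3323 and 3275 CP20M in colonoids and 42112, 36455, 33577 and 33189 CP20M in fibroblasts (3.65, SE 0.18, adjusted p = 8.5e-07). Col18a1, at 3861, 3037, 10007 and 28550 CP20M in fibroblasts (3.31, SE 0.76, adjusted p = 0.0044), and Col6a3, at 4970, 4268, 4774 and 14400 CP20M (8.08, SE 0.41, adjusted p = 1e-06), were highest in M11, and without M11 the difference of Col18a1 was 2.67 and no longer called. Col7a1, of anchoring fibrils, was the collagen not called, at 25, 23 and 16 CP20M in colonoids and 237, 138, 82 and 213 CP20M in fibroblasts (2.10, SE 0.35, adjusted p = 0.0008).

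Of 26 elastic fibre and matricellular genes tested, 23 were called higher in fibroblasts and none in colonoids (median 6.78). Thbs1 (thrombospondin 1) was the protein-coding gene with the highest mean value in fibroblasts, at 197602, 159889, 137283 and 93994 CP20M against 771, 1310 and 931 CP20M (7.15, SE 0.28, adjusted p = 2.3e-07). Fn1 (fibronectin) was at 146950, 150095, 111707 and 94194 CP20M in fibroblasts and was also well expressed in colonoids, at 8367, 13095 and 3683 CP20M (4.06, SE 0.40, adjusted p = 4.2e-05); the antisense gene Apol7d overlaps it. Tnc (tenascin C) was at 66483, 62681, 71843 and 49644 CP20M in fibroblasts and 13, 4 and 9 CP20M in colonoids (11.09, SE 0.16, adjusted p = 2.3e-09). Bgn, the proteoglycan biglycan, was at 34266, 33381, 32530 and 23526 CP20M in fibroblasts and 7, 0 and 2 CP20M in colonoids (10.39, SE 0.17, adjusted p = 3.3e-09). Lox, the lysyl oxidase that cross-links collagen and elastin, was at 22132, 25282, 20389 and 11152 CP20M in fibroblasts and 4, 0 and 0 CP20M in colonoids (9.80, SE 0.27, adjusted p = 3.5e-08), while elastin itself (Eln) did not exceed 9 CP20M. Spp1 (osteopontin) was at 2131, 2701 and 4293 CP20M in colonoids and 6821, 2845, 2036 and 5836 CP20M in fibroblasts (0.42). Agrn (agrin) was at 7581, 10499 and 10626 CP20M in colonoids and 2472, 2095, 5814 and 14257 CP20M in fibroblasts (−1.05). Both overlapped between the groups and were not called.

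Laminins divided by chain. Lama3 and Lamb3, chains of epithelial basement membrane, were called higher in colonoids. Lamb3 was at 5150, 6765 and 5949 CP20M against 8, 7, 3 and 4 CP20M (−7.87, SE 0.16, adjusted p = 8.5e-09). Lamb1 was at 14183, 12786, 11107 and 12006 CP20M in fibroblasts and 98, 111 and 30 CP20M in colonoids (7.09, SE 0.31, adjusted p = 4.4e-07), and Lama4 (6.28) and Lama2 (5.43) were also higher in fibroblasts. Lama5 (−1.63), Lamc1 (2.45) and Lamb2 (2.88) were not called. The receptors of the matrix divided in the same manner, with 8 of 17 integrins called higher in fibroblasts and 3 in colonoids. Itga5, which pairs with Itgb1 as the fibronectin receptor, was at 11898, 11208, 8621 and 7531 CP20M in fibroblasts and 82, 91 and 93 CP20M in colonoids (6.48, SE 0.17, adjusted p = 3.3e-08). Itgb4, which pairs with Itga6 in hemidesmosomes, was at 8619, 9170 and 11967 CP20M in colonoids and 137, 1646, 612 and 1596 CP20M in fibroblasts (−3.77, SE 0.76, adjusted p = 0.0022; not called without colonoid M1, adjusted p = 0.012). Itgb6, an epithelial integrin, was at 1527, 2516 and 1525 CP20M in colonoids and 3, 2, 5 and 2 CP20M in fibroblasts (−6.31, SE 0.22, adjusted p = 1.4e-07). Of 16 matrix metalloproteinase and Timp genes tested (of 26), 11 were called higher in fibroblasts and 1 in colonoids (median 3.76, and 1.07 without the filter). Timp3 was at 40991, 28826, 20839 and 20335 CP20M in fibroblasts and 122, 73 and 757 CP20M in colonoids (6.94, SE 0.66, adjusted p = 3.4e-05). Mmp14, a membrane-bound collagenase, was at 9018, 8388, 7427 and 6970 CP20M in fibroblasts and 0, 746 and 3 CP20M in colonoids (6.81, SE 1.14, adjusted p = 0.00084), with the 746 CP20M in colonoid M40. Mmp15, called higher in colonoids, was at 5314, 8080 and 7082 CP20M in colonoids and 208, 223, 535 and 1053 CP20M in fibroblasts (−3.98, SE 0.52, adjusted p = 0.0002).

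Of 19 Wnt ligand genes 4 were tested, and 1 was called in each direction. Wnt5a, a ligand of mostly non-canonical signaling, was at 4736, 3521, 3540 and 3523 CP20M in fibroblasts and 13, 2 and 2 CP20M in colonoids (7.24, SE 0.19, adjusted p = 3.3e-08), and Wnt7b was at 2113, 2256 and 3298 CP20M in colonoids and 3, 0, 0 and 0 CP20M in fibroblasts (−6.93, SE 0.20, adjusted p = 5.3e-08). Wnt2b, a canonical ligand of the gut stroma, stayed below 80 CP20M in every library and Wnt3 at 10 CP20M or less. Secreted modulators were on the fibroblast side, with 5 of 6 tested (of 16) called there. Dkk3 was at 4705, 5078, 6977 and 3160 CP20M (7.82, SE 0.25, adjusted p = 7.8e-08). Sfrp1, an antagonist that binds Wnt, was at 830, 908, 3609 and 4668 CP20M (6.34, SE 0.63, adjusted p = 4.4e-05). Dkk2 was at 1174, 655, 497 and 374 CP20M (4.33, SE 0.37, adjusted p = 1.9e-05). Frzb was at 388, 395, 401 and 374 CP20M (4.16, SE 0.22, adjusted p = 1.1e-06). Sfrp1 was several times higher in M1(2) and M11 than in M3 and M3(2). The R-spondin tested was Rspo3, at 225, 461, 340 and 143 CP20M in fibroblasts and 4 CP20M or less in colonoids (3.76, SE 0.38, adjusted p = 4.3e-05), whereas Rspo1, Rspo2 and Rspo4 stayed at 15 CP20M or less. Of the receptors, 2 were called higher in fibroblasts and 1 in colonoids, against 8.86% and 5.74% of all genes. With TMM and with median-of-ratios scaling, 4 were called higher in fibroblasts. Of 14 tested (of 18), Fzd7 (340, 394 and 746 CP20M in colonoids, 5154, 5803, 4449 and 2750 CP20M in fibroblasts, 3.18, SE 0.32, adjusted p = 4.8e-05; 2.96 and not called without colonoid M41) and Fzd2 (3.54) were called higher in fibroblasts and Lgr5 in colonoids. Fzd5 was at 2286, 2448 and 2599 CP20M in colonoids and 495, 420, 528 and 413 CP20M in fibroblasts (−2.35, SE 0.12, adjusted p = 1.2e-06), short of 8-fold, as was the R-spondin receptor Lgr4 (2811, 3409 and 3416 CP20M and 557, 473, 516 and 676 CP20M, −2.50, SE 0.15, adjusted p = 2.1e-06). The co-receptor Lrp6 was at 2616, 3275 and 3955 CP20M in colonoids and 4487, 4406, 4003 and 4002 CP20M in fibroblasts (0.38), with a fitted difference of 0.64 under TMM scaling.

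The BMP antagonist Grem1 had the widest difference of the BMP ligands and antagonists. Grem1 (gremlin 1, ENSMUSG00000074934, chr2:113746164-113758646) was at 83341, 69889, 85301 and 27443 CP20M in fibroblasts and 7, 0 and 0 CP20M in colonoids (11.43, SE 0.38, adjusted p = 1.1e-07), lowest in M11. Per kilobase of exon its mean level in fibroblasts was 16030 CP20M, above the 11782 CP20M of Col1a1. Of 11 BMP ligands and antagonists tested (of 18), 5 were called higher in fibroblasts and 2 in colonoids. Fstl1, a follistatin-like secreted protein, was at 13579, 15887, 13103 and 8701 CP20M in fibroblasts and 7, 0 and 0 CP20M in colonoids (9.15, SE 0.22, adjusted p = 2e-08). Bmp1, a protease that matures collagen in spite of its name, was at 7566, 6258, 6095 and 8662 CP20M in fibroblasts and 204, 152 and 212 CP20M in colonoids (5.09, SE 0.17, adjusted p = 9.5e-08) and the ligand Bmp4 at 467, 1048, 574 and 254 CP20M in fibroblasts and 37, 2 and 25 CP20M in colonoids (3.81, SE 0.49, adjusted p = 0.00018). The ligands called higher in colonoids were Bmp8b, at 2410, 1546 and 2743 CP20M against 72, 93, 65 and 77 CP20M (−4.51, SE 0.21, adjusted p = 6.4e-07; it overlaps Ppie), and Bmp3, at 944, 1465 and 1884 CP20M against 15, 15, 13 and 2 CP20M (−5.51, SE 0.29, adjusted p = 1.1e-06). Of 8 genes for TGF-beta and activin ligands and their binding proteins tested, 6 were called higher in fibroblasts and none in colonoids (median 4.37). Inhba, the activin A subunit, was at 12974, 14917, 12508 and 6420 CP20M in fibroblasts and 1096, 1555 and 968 CP20M in colonoids (3.22, SE 0.30, adjusted p = 2.9e-05). Ltbp1, which holds latent TGF-beta in the matrix, was at 11716, 9918, 11511 and 4400 CP20M in fibroblasts and 173, 89 and 76 CP20M in colonoids (6.12, SE 0.38, adjusted p = 3.2e-06). Tgfb3 was at 3352, 2439, 2103 and 1394 CP20M in fibroblasts and 10, 9 and 119 CP20M in colonoids and was called (SE 0.56, adjusted p = 4.8e-05). Tgfb1 was at 474, 566 and 383 CP20M in colonoids and 961, 1632, 1293 and 1637 CP20M in fibroblasts and was not called (1.49, SE 0.22, adjusted p = 0.00038). Of the 11 receptors tested (of 12), 4 were called, all higher in fibroblasts, among them the co-receptors Tgfbr3 (1848, 1633, 2472 and 2105 CP20M, 6.56, SE 0.18, adjusted p = 3.4e-08) and Eng (2962, 4452, 1795 and 2340 CP20M, 6.17, SE 0.30, adjusted p = 7.2e-07) and the type I receptor Acvrl1 (4148, 4641, 3852 and 1980 CP20M, 5.71, SE 0.41, adjusted p = 7.2e-06). The core receptors were in both groups, Bmpr1a at 2492, 2853 and 2682 CP20M in colonoids and 3029, 2664, 3071 and 3041 CP20M in fibroblasts (0.14) and Tgfbr2 at 8225, 6975 and 8196 CP20M in colonoids and 4141, 5067, 4727 and 4579 CP20M in fibroblasts (−0.75, SE 0.12, adjusted p = 0.00057).

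The study treats these cultures with regorafenib, an inhibitor of several kinases, so the level of its known targets before treatment is of interest. Of 12 target kinases 7 were tested, and the 4 that were called were all higher in fibroblasts. Fgfr1, a fibroblast growth factor receptor, was at 6013, 6467, 8039 and 5861 CP20M in fibroblasts and 4, 5 and 0 CP20M in colonoids (8.16, SE 0.15, adjusted p = 6e-09). Pdgfra was at 4877, 2606, 1645 and 1499 CP20M in fibroblasts and 19, 2 and 0 CP20M in colonoids (6.53, SE 0.43, adjusted p = 4e-06). Flt4, the receptor of Vegfc, was at 1028, 3122, 1226 and 888 CP20M in fibroblasts and 31, 22 and 42 CP20M in colonoids (4.77, SE 0.41, adjusted p = 1.8e-05), highest in M3(2). Pdgfrb, given above with 6.78, made the fourth. Fgfr2 was at 510, 1030 and 963 CP20M in colonoids and 923, 609, 809 and 349 CP20M in fibroblasts, overlapping between the groups (−0.33, SE 0.36, adjusted p = 0.43). Its annotated span overlaps 17 other tested genes. Fgfr4, which is not on the list and was looked up after the values were seen, was at 189, 463 and 365 CP20M in colonoids and 3, 0, 0 and 4 CP20M in fibroblasts (−3.97, SE 0.33, adjusted p = 1.6e-05). Braf, a cytoplasmic kinase, was at 856, 1150 and 1123 CP20M in colonoids and 1528, 1366, 1305 and 1290 CP20M in fibroblasts (0.40, SE 0.13, adjusted p = 0.026). It differed by less than 2-fold and was not called. Per kilobase of exon, the mean levels in colonoids were 80.8 CP20M for Fgfr2 and 75.2 CP20M for Braf. In fibroblasts they were 1282 CP20M for Pdgfrb, 667.8 CP20M for Fgfr1 and 265 CP20M for Pdgfra. Kdr (72, 1019, 168 and 186 CP20M), Flt1 (51, 610, 72 and 149 CP20M) and Tek (32, 238, 47 and 70 CP20M) passed 200 CP20M in M3(2) alone, the line with the most endothelial transcripts, and were not tested. Kit and Ret stayed below 90 CP20M in all 7 libraries.

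Ligands of these receptors were found in both groups. Of 16 tested (of 21), 8 were called higher in fibroblasts and none in colonoids (median 2.95, and 1.87 without the filter). Fgf2 was at 6144, 7420, 5377 and 3475 CP20M in fibroblasts and 177, 311 and 141 CP20M in colonoids (4.63, SE 0.31, adjusted p = 4.6e-06). Fgf10, a stromal ligand of Fgfr2, was at 2107, 2737, 3178 and 720 CP20M in fibroblasts and listed at 0 in all colonoids (6.59, SE 0.46, adjusted p = 5.9e-06). Fgf7, another ligand of epithelial Fgfr2, was at 981, 476, 824 and 433 CP20M in fibroblasts and 4, 3 and 3 CP20M in colonoids (4.82, SE 0.30, adjusted p = 3.3e-06). Angpt2, a ligand of Tek, was at 448, 6952, 1048 and 1840 CP20M in fibroblasts and 67, 43 and 87 CP20M in colonoids (4.25, SE 0.79, adjusted p = 0.0014), again highest in M3(2). Ligands of the Pdgf receptors were expressed by colonoids, in which the receptors were at 73 CP20M or less. Pdgfa was at 1524, 1899 and 1744 CP20M in colonoids and 1346, 1176, 1944 and 2569 CP20M in fibroblasts (−0.03). Pdgfb was at 453, 1065 and 659 CP20M in colonoids and 177, 518, 625 and 994 CP20M in fibroblasts (−0.46), and the groups overlapped for both genes. Vegfa was at 2274, 1671 and 2150 CP20M in colonoids and 1734, 1409, 1592 and 1324 CP20M in fibroblasts (−0.41) and Kitl, the ligand of Kit, at 1967, 2149 and 2640 CP20M in colonoids and 1664, 4870, 4606 and 2417 CP20M in fibroblasts (0.46), neither being called.

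Egfr, the receptor of the EGF that the colonoid medium contains, was at 3839, 4184 and 3817 CP20M in colonoids and 7014, 5454, 6432 and 3091 CP20M in fibroblasts (0.41, SE 0.26, adjusted p = 0.19), and the groups overlapped. Erbb2 was at 3187, 3871 and 4403 CP20M in colonoids and 464, 534, 526 and 595 CP20M in fibroblasts (−2.80, SE 0.14, adjusted p = 9.3e-07), close to the 8-fold threshold and not called. Erbb3, a receptor of neuregulins, was at 5193, 7645 and 8018 CP20M in colonoids and 333, 241, 1033 and 3816 CP20M in fibroblasts (−3.13, SE 0.84, adjusted p = 0.0094). M11 had more than 10 times the Erbb3 of M3 and M3(2), and the call was lost in 6 of the 7 fits that leave out 1 library, being kept without M11. It was also lost with TMM scaling (−2.87). Ligands divided again. Areg (amphiregulin) was at 9639, 4289 and 6930 CP20M in colonoids and 3, 7, 15 and 9 CP20M in fibroblasts (−7.87, SE 0.28, adjusted p = 1.4e-07). Btc (betacellulin) was at 3178, 1607 and 2559 CP20M in colonoids and 149, 289, 273 and 286 CP20M in fibroblasts (−3.18, SE 0.29, adjusted p = 2.5e-05; −2.97 without colonoid M41 or fibroblast M3 and −2.93 with TMM scaling, not called). Nrg1, a ligand of Erbb3, was called higher in fibroblasts, at 137, 227, 246 and 179 CP20M and 7 CP20M or less in colonoids (3.22, SE 0.28, adjusted p = 1.8e-05). Hgf, the stromal ligand of Met, was at 699, 718, 451 and 556 CP20M in fibroblasts and 0, 0 and 3 CP20M in colonoids (4.88, SE 0.22, adjusted p = 4.6e-07). Met was in both, at 1900, 1745 and 2064 CP20M in colonoids and 997, 970, 1037 and 2099 CP20M in fibroblasts (−0.65). Igf1 (1734, 1387, 1316 and 899 CP20M, 5.96, SE 0.23, adjusted p = 2.2e-07) and the binding proteins Igfbp7 (6235, 7404, 6688 and 6174 CP20M, 5.64, SE 0.18, adjusted p = 8.2e-08) and Igfbp6 (1447, 1161, 637 and 590 CP20M, 5.42, SE 0.33, adjusted p = 2.7e-06) were among the 7 of 12 HGF and IGF genes called, all higher in fibroblasts.

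**Figure D4:**
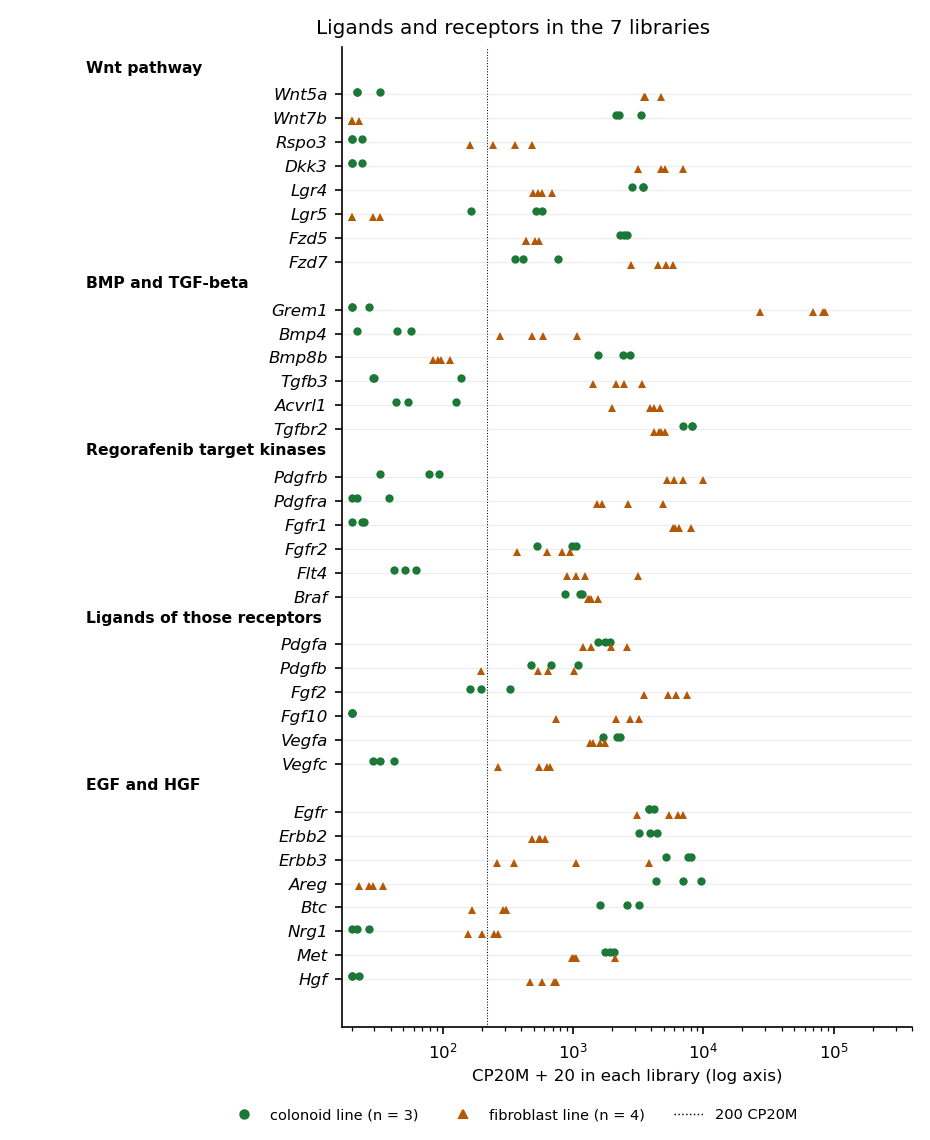
Levels of ligands, antagonists, receptors and kinases in each library, in CP20M + 20 on a log axis, with a circle per colonoid line and a triangle per fibroblast line; the dotted line is 200 CP20M. Grem1, Wnt5a, Fgf10 and Fgfr1 are high in fibroblasts and near 0 in colonoids, and Wnt7b and Areg are the reverse. Pdgfrb is high in fibroblasts and at 13 to 73 CP20M in colonoids, and Fgfr2, Pdgfa, Pdgfb and Egfr overlap between the groups.

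Of 13 chemokines and cytokines tested (of 24), 4 were called in each direction. Csf1, the growth factor of macrophages, was at 30790, 33715, 28716 and 11124 CP20M in fibroblasts and 328, 291 and 422 CP20M in colonoids (6.05, SE 0.37, adjusted p = 2.9e-06). Cxcl12 was at 4609, 2031, 2183 and 2099 CP20M in fibroblasts and 4, 0 and 0 CP20M in colonoids (6.92, SE 0.29, adjusted p = 3.6e-07). Ccl2 was at 565, 1253, 1603 and 1983 CP20M in fibroblasts and 107, 123 and 161 CP20M in colonoids (3.07, SE 0.39, adjusted p = 0.00017; between 2.84 and 2.96, not called, without colonoid M41, fibroblast M1(2) or M11). The colonoids expressed Il1rn, the interleukin-1 receptor antagonist, at 9378, 9354 and 3457 CP20M against 8, 11, 13 and 13 CP20M (−7.76, SE 0.34, adjusted p = 4.4e-07). Cxcl16 was at 5002, 4809 and 4151 CP20M against 177, 278, 250 and 133 CP20M (−4.39, SE 0.23, adjusted p = 1.2e-06). Il18, a cytokine of barrier epithelia, was at 3770, 2864 and 3000 CP20M against 12, 4, 5 and 6 CP20M (−6.92, SE 0.18, adjusted p = 2.9e-08). Il1b did not exceed 3 CP20M in any library.

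General cell functions differed by less than 8-fold. None of the 14 cell cycle, 12 cholesterol synthesis, 14 glycolysis, 17 autophagy and Gramd1, 12 reference, 7 mitochondrially encoded and 76 cytosolic ribosomal protein genes tested was called, against 14.6% of all genes. With thresholds of 0.05 for the adjusted p and 1 for the log2 difference, 55 ribosomal protein, 7 cholesterol synthesis, 4 reference, 3 autophagy and Gramd1, 3 mitochondrially encoded, 1 cell cycle and 0 glycolysis genes passed, against 42.3% of all genes. The median log2 differences were −0.062 for cell cycle, −0.063 for glycolysis and 0.023 for autophagy (0.015 without the filter). They became 0.194, 0.201 and 0.282 with TMM scaling, which turned the direction of the first 2. The cell cycle list summed to 6021, 23640 and 8200 CP20M in colonoids and 13524, 11425, 8886 and 8779 CP20M in fibroblasts. Mki67, a marker of proliferating cells, was at 592, 4532 and 926 CP20M in colonoids and 2310, 1681, 1328 and 1435 CP20M in fibroblasts, and M40 exceeded all 4 fibroblast lines while M41 and M1 lay below them. Becn1, an autophagy initiator, was at 3409, 3224 and 3170 CP20M in colonoids and 2130, 2285, 2187 and 2233 CP20M in fibroblasts (−0.56). Sqstm1, an autophagy receptor, was at 16021, 11793 and 10735 CP20M in colonoids and 25701, 23808, 23889 and 18760 CP20M in fibroblasts (0.85, SE 0.18, adjusted p = 0.003). Gramd1a, the cholesterol transfer protein that autogramin-2 inhibits, was at 249, 139 and 239 CP20M in colonoids and 825, 939, 780 and 1067 CP20M in fibroblasts (2.04, SE 0.21, adjusted p = 5.4e-05), without overlap but under 8-fold. The cholesterol synthesis genes had a median of −1.03 (−0.773 with TMM scaling).

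Ribosomal protein genes had a median log2 difference of −1.19 (−0.925 with TMM scaling) and took 5.43%, 2.79% and 3.46% of the colonoid libraries and 1.8%, 1.69%, 1.56% and 1.42% of the fibroblast libraries, with M41, the library with the fewest reads, highest. Of the 12 reference genes commonly used to normalise qPCR, Sdha differed by 0.00 and Actb by 0.23 (SE 0.22, adjusted p = 0.36). B2m, a chain of MHC class I, was at 1342, 1337 and 1372 CP20M in colonoids and 7846, 7975, 9565 and 8959 CP20M in fibroblasts (2.65, SE 0.11, adjusted p = 2.9e-07). Rplp0 (−1.27, SE 0.29, adjusted p = 0.0041) and Ywhaz (−1.16, SE 0.11, adjusted p = 3e-05) also differed by more than 1 on the log2 scale. Gapdh was at 25274, 13609 and 15818 CP20M and 22722, 19731, 19878 and 13740 CP20M and overlapped between the groups (0.09, SE 0.25, adjusted p = 0.76). The gene with the most reads in all 7 libraries was Gm26917 (chr17:39843013-39846341), which is annotated as a long non-coding RNA. It was at 264527, 391208 and 384895 CP20M in colonoids and 484805, 452235, 596077 and 523593 CP20M in fibroblasts (0.58, SE 0.29, adjusted p = 0.098). Gm42418 and CT010467.1, which overlap each other and of which the latter is annotated as rRNA, were at 196002, 67500 and 55905 and 246048, 71480 and 56796 CP20M in colonoids, highest in M41, and at 79244, 73748, 111445 and 85473 and 85607, 82652, 132973 and 98000 CP20M in fibroblasts. CT010467.1 (chr17:39846353-39848827) starts just after the end of Gm26917. Whether the reads of Gm26917 and Gm42418 come from rRNA was not tested.

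**Figure D5:**
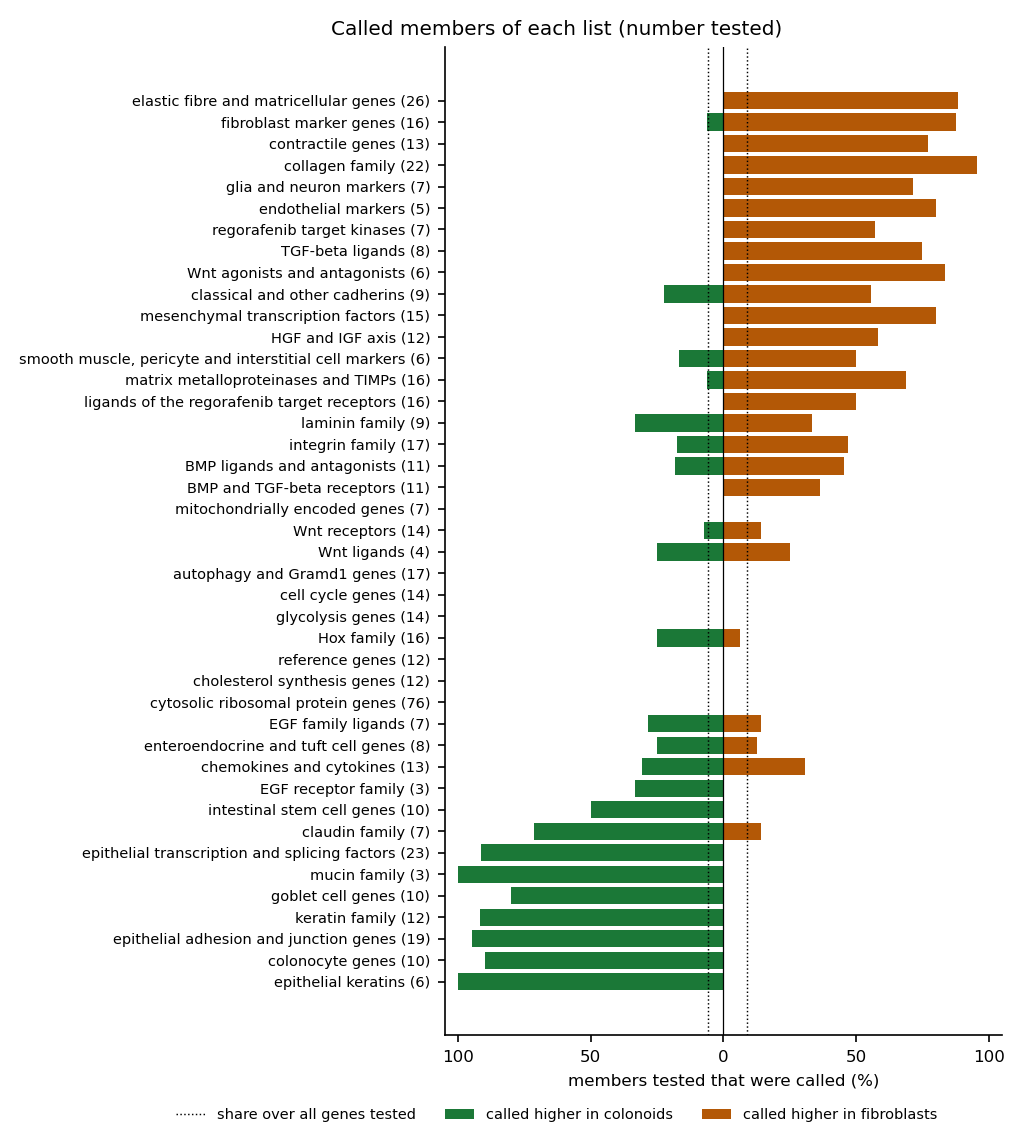
Share of the tested members of each list that was called higher in colonoids (green, to the left) or in fibroblasts (brown, to the right), in percent, with the number tested in parentheses and the lists ordered by their median log2 difference. The dotted lines mark the shares over all 11588 genes tested, 5.74% and 8.86%; the lists of cell cycle, glycolysis, cholesterol synthesis, autophagy, reference, mitochondrially encoded and ribosomal protein genes have no bar.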

How the data were processed

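Vehicle-treated colonoids (3 libraries) and fibroblasts (4 libraries) were grouped by their labels. Per the labels and the methods, the authors trimmed reads (Trimmomatic 0.36), aligned them to GRCm38 (STAR 2.5.3a), counted genes (HTSeq 0.9.1) and deposited a signal in CP20M, which is counts scaled to a library total of 20000000 and, from the values, rounded up. Organoids and fibroblasts are in separate tables, joined on gene identifier. The sources name different library kits, so whether counting used strand is not settled, and overlapping genes are uncertain. The authors' own fold changes and p-values were not used.

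Levels were compared as log2(CP20M + 20) in limma 3.58.1 (R 4.3.3) with a trended prior, for genes with 200 CP20M (10 CPM) in at least 2 libraries, with Benjamini-Hochberg adjustment over 11588 genes. An exact test of 3 against 4 libraries cannot go below p = 0.0571. The fit was tested on simulated data. No 2 libraries agreed within sampling noise, and each is from 1 line. The p-values set the difference between the groups against the spread between these libraries. In that spread, line, culture and library preparation cannot be told apart. Lists, members and groups were chosen with earlier results of these data known.

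Genes were named by rule: the 4 markers, the 10 widest differences in each direction, the 5 most abundant genes of each group, up to 4 called members per list by level and each called against its list, all tested target kinases, EGF receptors and reference genes, and the 5 called genes of widest spread per group. Some genes that the rule covers are not reported here. Other genes named, among them members not called, were chosen after their values were seen. Annotation was GENCODE M21, promoter windows were from RefSeq (GRCm38.p6), and levels per kilobase used the union of exons. Alternatives changed the pseudocount, filter, scaling, thresholds, epithelial group and libraries.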

Additional observations from a re-analysis of the deposited data

Results flagged for a closer look

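Among the 4 fibroblast libraries, 208 genes and list sums were examined for a library whose gap to the nearest of the other 3, as a share of the whole range, was above the critical value of Dixon, and 19 were found, where chance gives about 1 in 20. Groups of 3 were not examined. Line M11 was apart and high for Col6a3 (14400 CP20M), Cspg4 (1331 CP20M), Gfap (3868 CP20M) and Met (2099 CP20M). It was apart and low for Bgn (23526 CP20M), Col5a2 (27398 CP20M) and the summed BMP ligands and antagonists (46702 CP20M), TGF-beta ligands (22836 CP20M), chemokines and cytokines (18843 CP20M) and autophagy and Gramd1 genes (45735 CP20M). Line M3(2) was apart and high for the endothelial genes Emcn (2315 CP20M), Flt4 (3122 CP20M) and Kdr (1019 CP20M) and for the summed mesothelial and adipocyte markers (837 CP20M), and low for Bmpr1a (2664 CP20M). Line M3 was apart and high for Cxcl12 (4609 CP20M), Wnt5a (4736 CP20M) and the summed Wnt ligands (5047 CP20M), and low for Btc (149 CP20M).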

How the results depend on the processing

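The counts of called genes, 1027 higher in fibroblasts and 665 in colonoids, were 1156 and 745 with 1 CP20M added in place of 20, 1064 and 688 without the filter, 944 and 599 with the filter in at least 3 libraries, 1119 and 602 with TMM scaling, 1148 and 591 with median-of-ratios scaling, 997 and 594 with tumoroids in place of colonoids and 1001 and 634 with colonoids and tumoroids together. Leaving out 1 library gave 956 to 1038 and 618 to 672. The counts moved further with 100 CP20M added (524 and 356), with limma's treat against a log2 difference of 1 (1426 and 1222), and, by construction, at an adjusted p of 0.05 and a difference of 1 (2216 and 2686) and at 0.01 and a difference of 5 (348 and 246). Of 208 named genes tested, 159 were called, and 0 of these changed direction under any alternative in which they were tested. When 1 library was left out, 14 were tested and lost the call, Btc, Ccl2, Chgb, Cldn5, Col18a1, Erbb3, Fzd7, Gm26673, Grik3, Hoxa13, Insc, Itgb4, Ly6a and Pyy. A gene that no longer passed the filter is not counted as lost, here or below. In these fits 202 to 207 of the 208 genes passed it. Muc2 and Tff3 did not pass it without M41 or M40, nor did Lgr5 without M40 or M1. The same 7 named genes lost the call with either scaling, at Btc −2.93, Chgb −3.09, Erbb3 −2.87, Hoxa13 −2.89, Ly6a −2.93, Myc −2.99 and Pyy −3.01 with TMM and Btc −2.87, Chgb −3.05, Erbb3 −2.81, Hoxa13 −2.83, Ly6a −2.86, Myc −2.93 and Pyy −2.99 with median-of-ratios scaling, and the intestinal stem cell genes called fell from 5 to 4. With 100 CP20M added, 35 lost it, Bmp4, Btc, Ccl2, Cdh6, Chgb, Cldn5, Cspg4, Dkk2, Emcn, Erbb3, Fgf7, Fgfr4, Frzb, Fzd2, Fzd7, Gm26673, Grik3, Hgf, Hoxa13, Hoxa9, Hoxb2, Insc, Kcna6, Krt13, Krt6a, Lgr5, Nrg1, Pyy, Rspo3, Scn7a, Snai2, Tie1, Twist1, Twist2 and Vegfc. With tumoroids in place of colonoids 7 lost it, Btc, Cd14, Col18a1, Dkk2, Erbb3, Fzd2 and Timp3. With both together 10 lost it, Cd14, Chgb, Col18a1, Erbb3, Fzd2, Hoxd13, Muc2, Pyy, Tff3 and Timp3. Under treat 8 lost it, Chgb, Cldn5, Col18a1, Erbb3, Gm26673, Grik3, Itgb4 and Pyy. With 1 CP20M added 1 lost it, Erbb3. Without fibroblast lines M3(2) and M11 5 lost it, Ccl2, Chgb, Ly6a, Muc2 and Pyy. Only genes that were not called changed direction. The fitted differences were CT010467.1 0.24, Gm42418 0.20, Lrig1 0.23, Pdgfa 0.23 with TMM scaling. The fitted differences were CT010467.1 0.30, Gm42418 0.26, Lrig1 0.29, Pdgfa 0.29 with median-of-ratios scaling. The fitted differences were CT010467.1 0.24, Gapdh −0.15, Gm26917 −0.23, Gm42418 0.11, Pdgfa 0.45, Sdha −0.25 with tumoroids in place of colonoids. The fitted differences were CT010467.1 0.10, Gapdh −0.032, Gm42418 0.019, Pdgfa 0.21, Sdha −0.12 with colonoids and tumoroids together. The fitted differences were CT010467.1 0.094, Fgfr2 0.11, Gm42418 0.055, Lrig1 0.16, Sdha −0.025 without fibroblast lines M3(2) and M11. When 1 library was left out, the ranges were CT010467.1 −0.44 to 0.62, Gapdh −0.096 to 0.35, Gm42418 −0.41 to 0.49, Lrig1 −0.34 to 0.15, Mki67 −0.31 to 1.13, Pdgfa −0.23 to 0.14, Pdgfb −0.78 to 0.0047, Sdha −0.13 to 0.081. The causes were not tested. Of the 10 goblet cell genes, 2 were called with colonoids and tumoroids together and 5 without fibroblast lines M3(2) and M11. No paired analysis was possible because the groups share no line and the replicate numbers only name samples in accession order. The planned edgeR and DESeq2 fits were not run, since the values were rounded up and whole reads could not be recovered by the standard set for a count test. With 6590000 reads, 1 read in colonoid M41 is worth 3.03 CP20M, which limits what can be said of genes within a few CP20M of 0.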

Other observations

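Hox genes record position along the body axis. Of 16 tested (of 39), 4 were called higher in colonoids and 1 in fibroblasts, against 5.74% and 8.86% of all genes, and 11 were not called. The median was −0.091, and −0.317 over all genes. The Hox median changed sign to 0.259 without the filter, 0.166 with TMM scaling and 0.228 with median-of-ratios scaling. Hoxb13, the most posterior gene of its cluster, was at 1163, 1701 and 1518 CP20M in colonoids and 12, 18, 5 and 2 CP20M in fibroblasts (−5.68, SE 0.25, adjusted p = 4.3e-07). Hoxa13 was at 1230, 1562 and 1312 CP20M and 153, 238, 137 and 67 CP20M (−3.14, SE 0.33, adjusted p = 5.7e-05; −2.85 without fibroblast M11 and −2.89 with TMM scaling, not called), Hoxd13 at 1339, 2479 and 2990 CP20M and 137, 16, 38 and 131 CP20M (−4.69, SE 0.55, adjusted p = 0.00011) and Hoxa9 at 1166, 1271 and 1128 CP20M and 75, 117, 130 and 43 CP20M (−3.52, SE 0.29, adjusted p = 1.5e-05). The gene called higher in fibroblasts was Hoxb2, at 252, 280, 220 and 220 CP20M against 0, 4 and 6 CP20M (3.50, SE 0.22, adjusted p = 3.3e-06). Hoxa10 and Hoxb9 were expressed in all 7 libraries and not called, Hoxa10 being at 1500, 1393 and 1215 CP20M in colonoids and 1155, 953, 842 and 331 CP20M in fibroblasts. From which stretch of the colon each culture was taken is not given in the sources used here, and its part in these values was not tested.

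In vehicle-treated tumoroids, organoids with floxed, recombined Apc that are in the same table as the colonoids, Hoxd13 was at 2, 244 and 23 CP20M in the lines F11, M3 and M14, and Epcam at 11550, 8402 and 10129 CP20M.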
